A study of Mus musculus with 66 samples.

Results

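The Groucho/TLE corepressors were taken here as 6 mouse genes, Tle1, Tle2, Tle3, Tle4, Tle6 and Aes, selected by gene symbol. In 3'READS they were 6 of 15856 genes and held 27 of 59578 pA sites. In RNA-seq the 3 members analysed, Tle2, Tle3 and Aes, stood among 9999 genes, and Tle1, Tle4 and Tle6 were not analysed in RNA-seq here. The family was chosen with results of these data in view, because Tle2 reads shifted away from the upstream pA site after depletion of Paf1 and of Cdc73. The 3'READS values of Tle2 in those comparisons, and between those depletions, are therefore a description without a test.

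C2C12 cells, an established line of mouse myoblasts, received siRNA at 50 nM and were collected after 48 h. The siRNA was either a control (siCtrl) or targeted Paf1 (siPaf1), Cdc73 (siCdc73) or Ski8 (siSki8, gene symbol Wdr61). These proteins are subunits of Paf1C, a complex that accompanies RNA polymerase II during elongation, and the comparisons ask how depleting each subunit alters transcript levels and the positions where transcripts end. RNA-seq and 3'READS, which counts the 3' ends of polyadenylated transcripts from reads with non-templated A residues (PASS reads), each had 7 libraries: siCtrl, siPaf1 and siCdc73 in batch 1 and in batch 2, and siSki8 in batch 2 alone. The labels do not say that the batches were separate cultures, so p-values measure the spread between these libraries, and the single siSki8 library borrowed its spread from the replicated groups.

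Groucho/TLE proteins do not bind DNA themselves. Transcription factors of the Hes, Runx, Tcf/Lef and related families bring them to target genes, where they repress transcription together with histone deacetylases. In the Wnt pathway they occupy Tcf/Lef factors until beta-catenin displaces them. Tle1 to Tle4 are full-length family members, with an amino-terminal tetramerization region and a carboxy-terminal WD40 repeat domain. Aes keeps the amino-terminal part and lacks the WD40 domain, and Tle6 is a divergent member known from oocytes and early embryos.

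Library totals were 2796693 to 8160386 gene counts in RNA-seq and 5302728 to 14340927 PASS reads in 3'READS. The siRNA targets were lowest in the libraries labelled for them. Paf1 stood at 120 and 163 CPM (counts scaled to 1000000 per library) in RNA-seq in siCtrl and at 22.9 and 31.8 in siPaf1, Cdc73 at 122 and 100.3 in siCtrl and at 14.6 and 19.3 in siCdc73, and Wdr61 at 132 in siCtrl of batch 2 and at 5.02 in siSki8. The myoblast markers Des, Cdh15, Vim and Myf5 were present in every library, whereas Myod1 was at or under 0.598 PASS CPM. The summed 3'READS levels of the marker lists ranged from 1627 to 3170 CPM for 5 myoblast genes, from 19.3 to 261 for 4 of 5 myotube genes, from 3.46 to 30.7 for 3 endothelial genes (mostly Kdr), from 1.84 to 6.15 for 3 immune genes and from 0 to 2.65 for 2 of 3 epithelial genes. The siPaf1 3'READS library of batch 2 stood apart: 271 genes, none of them a member, were more than 20-fold above every other library.

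Most results turn on which of 8 pA sites was used, so their sequences are given as the 30 bases that end at the cleavage position, on the transcribed strand of mm9, 5′ to 3′. Capitals mark a polyadenylation signal where 1 of 8 hexamers was found (the common forms AATAAA or ATTAAA, or a variant, which could be AGTAAA or else TATAAA or else CATAAA or else GATAAA or else AATATA or else AATACA). Only the transcribed strand was searched, since the signal acts in the RNA, and the variants were searched where neither AATAAA nor ATTAAA was present.
Tle2 site listed as intronic, chr10:81053184-81053213, plus strand: ggcactggggaAATATAacacatttatcaa
Tle2 site listed in the 3'-most exon, chr10:81058941-81058970, plus strand: cctctccaggaggtctggggttctactgaa
Tle2 site listed in the 3'-most exon, chr10:81061900-81061929, plus strand: tcaaaacTATAAAgcctgcatctccctgaa
Aes proximal site, chr10:81028880-81028909, plus strand: ttccccaAATAAAcgtgagggttaaaagtt
Aes distal site, chr10:81029078-81029107, plus strand: tgccttcaaAATAAAaacatgaaaaggttg
Tle3 proximal site, chr9:61264755-61264784, plus strand: ctggaggcttctgcttccgtttctcccaca
Tle3 distal site, chr9:61265902-61265931, plus strand: gctctccatggatgtagcatatggaagaga
Tle1 site listed as intronic, chr4:71818615-71818644, minus strand: tatataAATAAAgccattttttgaaactgc

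Both Aes sites and the main Tle1 site held AATAAA. Of the Tle2 sites, the first held the variant AATATA and the farthest the variant TATAAA, while the one between them and both Tle3 sites shown held none of the 8 hexamers. Over the family, 17 of 27 sites (63.0%) held AATAAA or ATTAAA in this window, 3 held a variant alone and 7 held none. Over 59277 sites of all genes the share with AATAAA or ATTAAA was 53.6%, a variant alone was found in 14.7% and none of them in 31.6%. A match describes these letters only and is not a measured signal.

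In siPaf1 and siCdc73, Tle2 reads were found 5380 and 8339 bases beyond the annotated end of the gene, at sites that were almost unused in siCtrl. At the site listed as intronic, chr10:81053213, the 2 siCtrl libraries had 163 and 107 reads, siPaf1 had 109 and 184, siCdc73 had 97 and 162, and siSki8 had 19. At chr10:81058970 and chr10:81061929 together, siCtrl had 1 and 0 reads, siPaf1 had 168 and 159, siCdc73 had 80 and 108, and siSki8 had 1. The 4 siPaf1 and siCdc73 libraries were thus all above siCtrl and siSki8 at the far sites, and there was no such separation at the first site. In bulk samples such as these, fewer cells of a kind and less RNA per cell cannot be told apart.

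The deposited class of these sites and the annotation of the same genome build (GENCODE M1 on mm9) did not place them alike. The annotated Tle2 gene spans chr10:81037306-81053590 on the plus strand. The site listed as intronic coincided with the end of the transcript Tle2-006, lay in an exon of 6 of the 7 Tle2 transcripts that span it, and was 377 bases before the annotated gene end. Both sites listed in the 3'-most exon lay outside the annotated gene, inside Tle6, which runs on the opposite strand at chr10:81053649-81063818. Over all genes with an annotation, 932 of 16605 intronic sites (5.61%) lay within 10 bases of an annotated transcript end, and 2890 of 37963 sites of the 3'-most exon (7.61%) lay more than 1000 bases beyond the gene end, 758 of them inside a gene of the opposite strand. By the annotation, then, the reads gained under the name Tle2 lay beyond the gene's end, and the site listed as intronic was at an annotated transcript end. Whether the far reads belong to Tle2 transcripts was not tested.

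**Figure D1:**
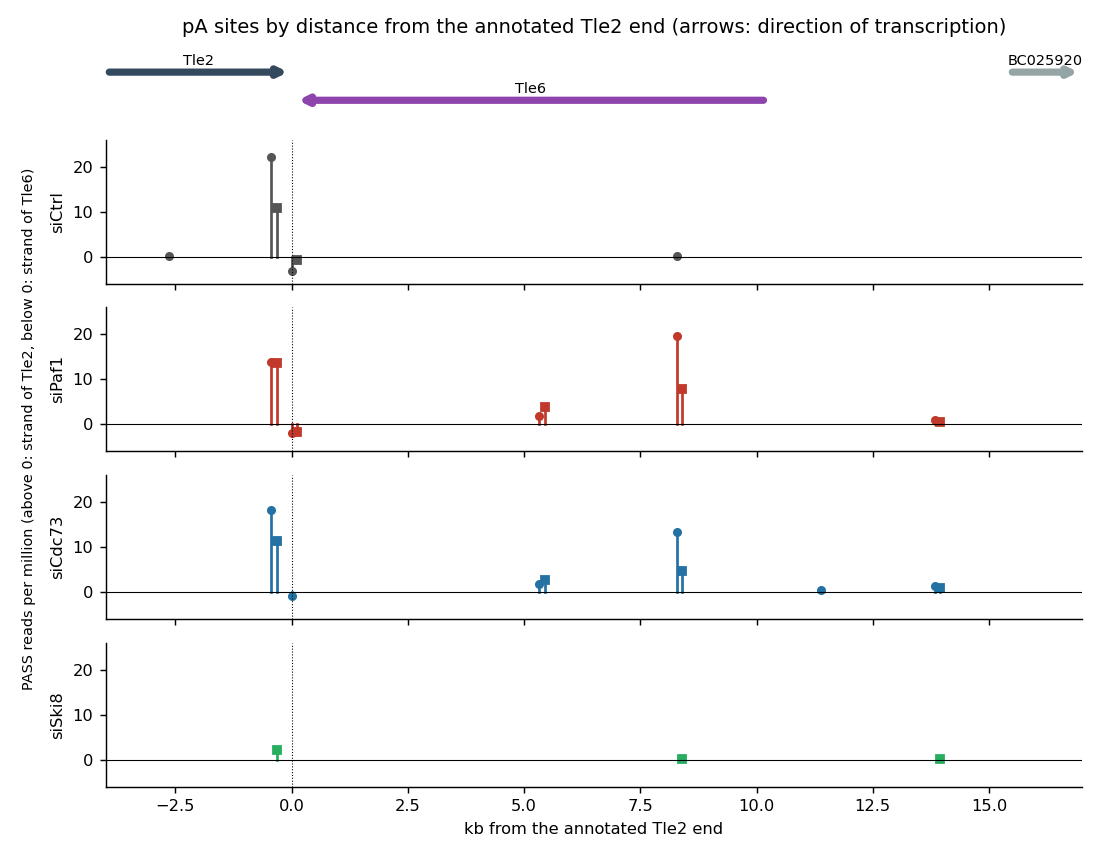
PASS CPM at each pA site of Tle2 and Tle6 against the distance in kb from the annotated Tle2 end, in 1 panel per siRNA, with circles for batch 1, squares for batch 2 (drawn slightly apart at the same site) and arrows for the annotated genes, a further gene included. Values above 0 are on the strand of Tle2 and values below 0 on that of Tle6. Sites 5.38 and 8.34 kb beyond the end carried reads in all siPaf1 and siCdc73 libraries.

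In sense PASS CPM, the level at or before the annotated Tle2 end was 22.2 and 10.9 in siCtrl, 14.0 and 13.8 in siPaf1, 18.3 and 11.3 in siCdc73, and 2.29 in siSki8. In batch 1 both knockdowns were below siCtrl and in batch 2 both were above it. Beyond the end the level was 0.136 and 0 in siCtrl, 21.5 and 11.9 in siPaf1, 15.1 and 7.55 in siCdc73, and 0.121 in siSki8. So the share of Tle2 reads beyond the end was 0.606% and 0% in siCtrl, 60.7% and 46.4% in siPaf1, 45.2% and 40.0% in siCdc73, and 5.00% in siSki8. The 95% Wilson intervals were 0.107% to 3.35% and 0% to 3.47% in siCtrl, 38.0% to 52.6% in siCdc73 of batch 1, and 0.888% to 23.6% in siSki8, for which only 20 reads were available. For siCtrl of batch 2 the limit of 3 reads in 107 is 2.80%, and the Wilson bound of 3.47% is the wider of the 2. These intervals and limits cover counting error only.

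**Figure D2:**
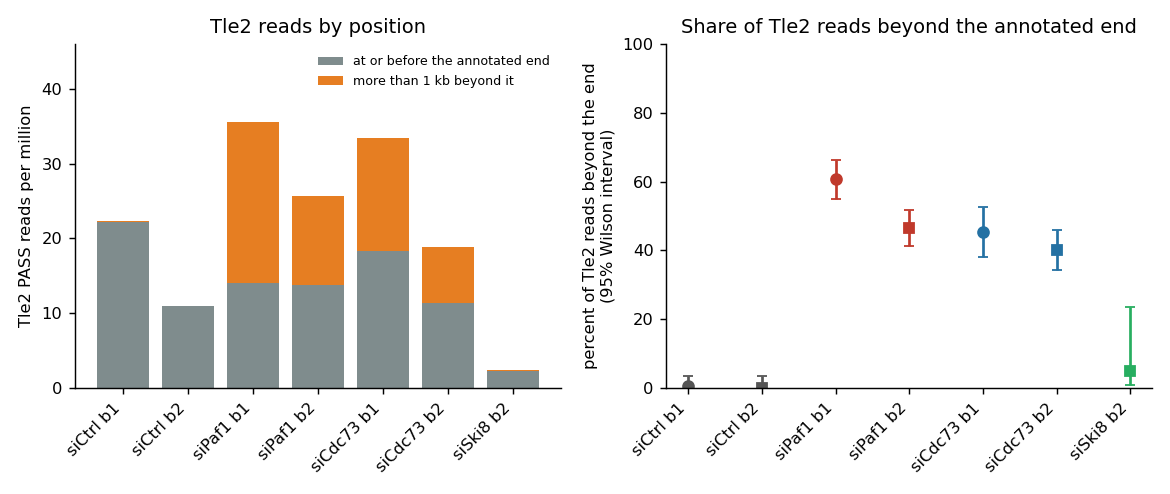
Left, Tle2 PASS CPM in each library (b1 and b2 are the batches), with the part at or before the annotated end in grey and the part more than 1 kb beyond it in orange. Right, the percent of Tle2 reads beyond the end with 95% Wilson intervals, between 40.0% and 60.7% in the siPaf1 and siCdc73 libraries and at most 5.00% in the others.

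As a description, the lowest siPaf1 or siCdc73 share minus the highest siCtrl share was 39.4 percentage points for Tle2, the second of 1238 genes with reads beyond their ends, after Ppp2r1b at 46.9 and before Mvk at 38.7, which are named after their values were seen. Since Tle2 was chosen on these same reads, a rank near the top follows in part from that choice and is not a result. Tle1, the other member with such reads, stood at -6.46 points and the median of the 1238 genes at -6.67. Taking the lowest share minus the highest tends to give a value below 0 for a gene without a change. Neither value is therefore read as a loss. Over all annotated genes the share of reads more than 1 kb beyond the end was 1.76% and 1.64% in siCtrl, 1.23% and 1.32% in siPaf1 and 0.901% and 0.890% in siCdc73, with siSki8 between the last 2 groups. The shift of Tle2 was thus opposite in direction to that of all genes together. The ratio of reads beyond the end to those before it was called by edgeR for 0.0805% of 1243 genes after siPaf1 and 0% after siCdc73, or 5.47%, 5.15% and 0.161% after siPaf1, siCdc73 and siSki8 with the batch as a block, and nothing is read from this for Tle2. Between siPaf1 and siCdc73, where 3.22% were called with the block, Tle2 differed by 0.63 (SE 0.799), a description from values on which it was chosen. Tle1 was called in none of these comparisons.

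In the deposited classes the same reads form the CDS-APA ratio, the reads at intronic or upstream exonic sites against those in the 3'-most exon. Its log2 change for Tle2 was -8.07 after siPaf1 and -7.44 after siCdc73, or -8.14 and -7.51 with the batch as a block, values that rest on 1 and 0 siCtrl reads in the 3'-most exon. CDS-APA was called for 2.38% of 1766 genes after siPaf1 and for 4.13% after siCdc73, or 23% and 23.2% with the block, and since Tle2 was chosen on this contrast nothing is read from it. In siPaf1 against siCdc73 the Tle2 ratio differed by -0.64 on the log2 scale (SE 0.89). With the block it differed by -0.63 (SE 0.66), where 5.1% of genes were called. Tle2 was chosen because its ratio fell in both knockdowns, so whether they differ is not read from these values. The siSki8 comparison uses the same siCtrl values, and choosing Tle2 on them favours a fall there. For siSki8 the change against siCtrl was -3.77 (SE 2.09, adjusted p = 1, edgeR) and -4.14 with the block (SE 2.56, adjusted p = 0.973, beside 0.113% of genes called), which could not be separated from 0 with 1 of 20 reads beyond the end.

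Among the reads beyond the end, the nearer site at chr10:81058970 took 8.33% and 33.3% in siPaf1 and 11.3% and 37.0% in siCdc73, in batches 1 and 2. The batch 2 library was higher in both knockdowns, and the 2 knockdowns lay within a few points of each other in each batch. In centred log2 upstream to 3'-most exon ratio over the 7 libraries, the genes most like Tle2 among 1765 were Dnahc10 and Gas2l1, with root mean square differences of 0.95 and 1.22 against a median of 3.79 for all genes. In both, the ratio was higher in siCtrl and siSki8 than in every siPaf1 and siCdc73 library. This follows from their selection by likeness to Tle2 over these libraries and is a description only.

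Tle6, which lies tail to tail with Tle2, had few reads. Its site at chr10:81053649, 59 bases past the Tle2 end on the opposite strand, had 23 and 7 reads in siCtrl, 15 and 22 in siPaf1, 5 and 0 in siCdc73 and 0 in siSki8. In CPM the values were 3.12 and 0.715, 1.92 and 1.64, 0.945 and 0, and 0, so that siCdc73 of batch 1 lay within the range of siCtrl. The libraries at 0 allow up to 0.210 CPM in siCdc73 of batch 2 and 0.362 CPM in siSki8. The 3'READS level of Tle6 after siCdc73 changed by -2.16 on the log2 scale (SE 1.75, adjusted p = 0.615, edgeR) and by -2.34 with the block (SE 1.26, adjusted p = 0.203), so it did not pass the test. Leaving out 1 library moved the first value between -7.42 and -0.52.

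At 2 sites upstream of Tle6, listed as upstream antisense (uaRNA), reads also ran on the strand of Tle2. The libraries held 0 and 0 such reads in siCtrl, 7 and 6 in siPaf1, 10 and 12 in siCdc73 and 1 in siSki8. The uaRNA ratio of Tle6, antisense to sense reads, was not called after siPaf1 (adjusted p = 0.557, edgeR) or siCdc73 (adjusted p = 0.187), nor with the block (adjusted p = 0.458 and 0.0786). Calls over 1109 genes were made for 0.0902% after siPaf1 and 0.271% after siCdc73, or 2.07% and 2.16% with the block. These sites are 1211 and 3667 bases before the Tle6 start and 11439 and 13895 bases beyond the Tle2 end on one strand, so transcripts from either source cannot be told apart there.

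The level of each member was set against its spread. In RNA-seq, which counts coding regions, the order per length was Aes, Tle3 and Tle2 in each of the 7 libraries. Aes, the short family member, stood at 407 and 826 RPKM in siCtrl, Tle3 at 29.0 and 14.5, and Tle2 at 8.47 and 7.37. Tle3 and Tle2 were neighbours that overlapped over the libraries, since the lowest Tle3 value was 11.1 RPKM and the highest Tle2 value 12.9. In 3'READS, which counts 1 end per transcript, Aes ranged from 180 to 277 CPM, Tle2 from 2.41 to 35.5, Tle3 from 6.92 to 26.4, Tle1 from 1.22 to 7.40, Tle6 from 0 to 3.12 and Tle4 from 0 to 1.42. Apart from Aes each member overlapped its neighbours in this order.

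**Figure D3:**
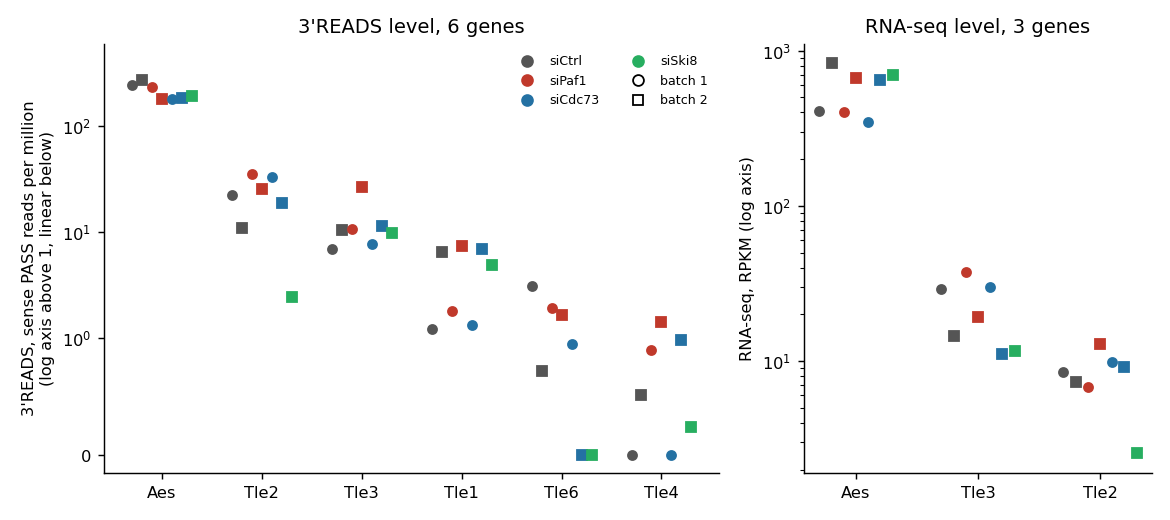
Levels of the members in each library, as sense PASS CPM in 3'READS (left, log axis above 1 and linear below) and RPKM in RNA-seq (right, log axis), with colours for the knockdown and symbols for the batch. Aes lies far above the other members, and Tle2 in siSki8 lies below all other Tle2 values in both assays.

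No member was called in RNA-seq without the batch block, where 0% of 6521 genes were called in any comparison by edgeR (an unadjusted p under 0.05 was reached by 1156, 1377 and 361 genes in siPaf1, siCdc73 and siSki8, respectively). When batch was a block, 32.5% of genes were called after siPaf1, 39.9% after siCdc73 and 5.43% after siSki8 (2.93% higher and 2.5% lower), and the call among the 3 members was Tle2 after siSki8. Tle2 had 347 and 265 counts in siCtrl, 265 and 222 in siPaf1, 394 and 192 in siCdc73 and 128 in siSki8, or 54.3, 45.4, 43.1, 79.4, 62.3, 53.7 and 15.7 CPM. The siSki8 value was the lowest of the 7 and the other groups overlapped. Against siCtrl it changed by -1.48 on the log2 scale with the block (SE 0.386, adjusted p = 0.0213, edgeR), by -1.32 without it (SE 0.549, adjusted p = 0.781), and by -1.24 within batch 2. Without the siCtrl library of batch 1 the blocked adjusted p was 0.0763.

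The 3'READS level of Tle2 was lowest in siSki8 as well, at 20 reads against 107 to 343 in the others. Its log2 change was -2.93 (SE 0.864, adjusted p = 1, edgeR) and -2.31 with the block (SE 0.481, adjusted p = 0.0737), in a comparison in which 0% of 12579 genes were called without the block and 0.151% with it. With the block the log2 change lay between -2.61 and -2.14 when any 1 of the 6 replicated libraries was left out. The single siSki8 library stayed in each of these fits, so they cannot show how far the change rests on it. In RNA-seq Tle2 did not pass the test after siPaf1, at -0.34 in batch 1 and 0.79 in batch 2, or after siCdc73, at 0.33 and 0.46 (log2 change from the siCtrl library of the same batch). The genes nearest to Tle2 in centred log2 CPM over the 7 RNA-seq libraries were Nmb and Lrrc45, with root mean square differences of 0.156 and 0.184 against a median of 0.862 over 6520 genes.

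Aes shifted toward the proximal of its 2 pA sites after siCdc73. The sites are 198 bases apart, and the distal one coincides with the annotated end of the gene, which spans chr10:81022239-81029107. The proximal site took 63.1% and 56.6% of Aes reads in siCtrl, 68.1% and 66.5% in siPaf1, 81.4% and 80.5% in siCdc73 and 64.3% in siSki8. The siCdc73 libraries were above all others, with 95% Wilson intervals of 78.8% to 83.7% and 78.9% to 82.0%, and both siPaf1 libraries were above both siCtrl libraries. The proximal site stood at 157 and 157 PASS CPM in siCtrl and at 146 and 151 in siCdc73, and the distal site stood at 91.5 and 120 in siCtrl, 75.6 and 60.5 in siPaf1, 33.5 and 36.5 in siCdc73 and 68.6 in siSki8.

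The 3'UTR-APA ratio of Aes, proximal to distal, changed by 1.51 on the log2 scale after siCdc73 (SE 0.554, adjusted p = 1, edgeR), and by 1.51 with the block (SE 0.417, adjusted p = 0.0151). Without the block 0% of 4567 genes were called in any of the 3 knockdowns (an unadjusted p under 0.05 was reached by 229, 192 and 58 genes, respectively). Blocking gave calls for 6.79% after siPaf1, 4.29% after siCdc73 and 0.307% for siSki8, and Aes after siCdc73 was the call among the members tested (Aes and Tle3, with Tle2 left out for siPaf1 and siCdc73). The blocked call was lost without either siCtrl or either siCdc73 library, at an adjusted p of 0.0959 to 0.673, while the log2 change stayed between 1.36 and 1.66 with the block when any 1 of the 6 replicated libraries was left out. After siPaf1 the blocked change was 0.46 (SE 0.412, adjusted p = 0.625). The difference between siPaf1 and siCdc73 at the proximal site was -1.05 with the block (SE 0.417, adjusted p = 0.194), so a difference between the knockdowns was not shown.

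**Figure D4:**
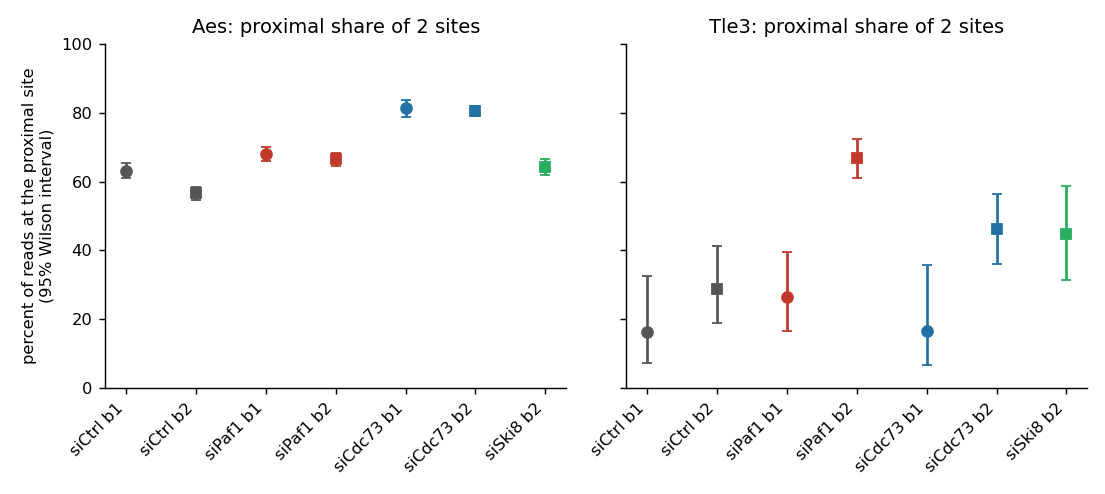
Percent of reads at the proximal of the 2 most used sites of the 3'-most exon in Aes (left) and Tle3 (right) in each library (b1 and b2 are the batches), with 95% Wilson intervals. Both siCdc73 libraries of Aes lie above 80%, and siPaf1 of batch 2 stands apart for Tle3 at 66.9%.

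Neither assay gave a call for the level of Aes. It had 1831 and 2710 PASS reads in siCtrl, 1847 and 2416 in siPaf1, 950 and 2676 in siCdc73 and 1592 in siSki8. In CPM the siCtrl libraries were the highest 2 of the 7, and the 3'READS change was -0.42 after siCdc73 with the block (SE 0.270, adjusted p = 0.287, edgeR) and -0.44 after siPaf1 (SE 0.271, adjusted p = 0.276). The RNA-seq change was -0.17 after siCdc73 (SE 0.213, adjusted p = 0.548) and -0.19 after siPaf1 (SE 0.213, adjusted p = 0.518), with batch 2 above batch 1 in each of the 3 replicated groups, at 1312 against 672 CPM in siCtrl. Pomp and Commd1 were nearest to Aes in RNA-seq, with root mean square differences of 0.0828 and 0.0845 against a median of 0.791.

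Tle3 had 5 sites in its 3'-most exon. Its 2 most used sites are 1147 bases apart, and the proximal one lies 1 base past the end of the annotated transcript Tle3-006. The proximal share was 16.1% and 28.8% in siCtrl, 26.4% and 66.9% in siPaf1, 16.7% and 46.1% in siCdc73 and 44.7% in siSki8. The siPaf1 library of batch 2 was above all others, and batch 2 was above batch 1 in each of the 3 replicated groups. The ratio changed by 1.62 after siPaf1 (SE 1.30, adjusted p = 1, edgeR) and by 1.73 with the block (SE 0.922, adjusted p = 0.316). Without the siPaf1 library of batch 2, which stood apart, the change was 0.31, and 1.20 with the block.

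The 3'READS level of Tle3 followed the same library, at 6.92 and 10.5 CPM in siCtrl, 10.6 and 26.4 in siPaf1, 7.75 and 11.5 in siCdc73 and 9.78 in siSki8. It was not called after siPaf1, with a log2 change of 0.91 and the block (SE 0.349, adjusted p = 0.0804, edgeR), or 0.97 without it (adjusted p = 0.441). With the block it passed the threshold when the siPaf1 library of batch 1 was left out (log2 change 1.25, adjusted p = 0.0182, edgeR), which leaves siPaf1 with the library that stood apart. In RNA-seq Tle3 had 1211 and 533 counts in siCtrl, 1490 and 336 in siPaf1, 1222 and 240 in siCdc73 and 598 in siSki8. In CPM, batch 1 was above batch 2 in every replicated group, which is the opposite order to Aes, and the blocked change was 0.36 after siPaf1 (SE 0.234, adjusted p = 0.246). Cdh24 and Smarcc1 were nearest to Tle3 in RNA-seq, with root mean square differences of 0.124 and 0.125 against a median of 0.796.

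Tle1 ended mostly at a site listed as intronic. Of its 330 sense reads 212 (64.2%) lay at chr4:71818615, within 1 base of the end of the annotated transcript Tle1-002 and far before the annotated gene end at chr4:71778176. The site had 6 and 50 reads in siCtrl, 12 and 52 in siPaf1, 4 and 62 in siCdc73 and 26 in siSki8, so that each batch 2 library was above each batch 1 library. Tle1 also had sites 4971 and 7195 bases beyond the gene end, with 3 and 41 reads, 30 of the latter in siPaf1 of batch 2. The CDS-APA ratio of Tle1 changed by -1.0 after siPaf1 (SE 1.51, adjusted p = 0.778, edgeR) and by -0.66 after siCdc73 (SE 1.54, adjusted p = 0.866), and its 3'READS level by 0.19 and 0.24 (adjusted p = 0.957 and 0.952). Without the siPaf1 library of batch 2 the first of these turned to 0.40.

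Tle4 was near the limit of detection, with 47 sense reads in all. It had 0 and 5 reads in siCtrl, 7 and 19 in siPaf1, 0 and 14 in siCdc73 and 2 in siSki8, and 28 of them ended at chr19:14522639, 1 base from the annotated end of Tle4-202. In each batch siPaf1 was the highest library. The 3'READS level of Tle4 was not called after siPaf1, at 2.51 on the log2 scale with the block (SE 1.6, adjusted p = 0.290, edgeR).

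In 3'READS levels as a whole, none of the 5 members other than Tle2 was called after siPaf1 or siCdc73, where edgeR called 0% of 12579 genes without the block (1703 and 1929 at an unadjusted p under 0.05) and 18.8% and 22.5% with it. Of the 9 member sites tested outside Tle2 for single-site usage, a site against all other reads of its gene, 0 were called without the block, where 0.0429% and 0.0858% of 16317 sites were called after siPaf1 and siCdc73. With the block 8.79% and 7.4% of sites were called, and the member sites called were the 2 sites of Aes after siCdc73, at an adjusted p of 0.00766. Because Aes has 2 sites, these are the same reads counted from both sides.

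The factors that bring Groucho/TLE proteins to DNA and the other corepressors were examined in RNA-seq from 3 lists. No gene of any list was called without the block, and the counts with it moved when 1 library was left out, from 2 to 9 recruiting factors, 0 to 6 modifiers and partners and 1 to 6 other corepressors called in at least 1 knockdown. Summed muscle marker levels differed between libraries as well. Neither these differences nor their part in the list changes were tested. In RNA-seq only 1 of 5 myotube genes was listed, at 0 to 6.08 CPM. The summed 3'READS level of the 4 myotube genes was 62.8 and 88.7 CPM in siCtrl, 100.0 and 261 in siPaf1 (261 in the batch 2 library that stood apart), 19.3 and 55.5 in siCdc73 and 117 in siSki8. That of the 5 myoblast genes was 2218 and 2929 in siCtrl, 2449 and 3170 in siPaf1, 1627 and 1975 in siCdc73 and 2747 in siSki8. In RNA-seq Cdh15, a myoblast cadherin and 1 of these 5, stood at 884 and 1035 CPM in siCtrl, 397 and 641 in siPaf1, 328 and 352 in siCdc73 and 814 in siSki8. The RNA-seq sum of the 4 myoblast genes listed there was 19147 and 33478 CPM in siCtrl and 18838 and 27594 in siPaf1. It was 17512 and 25710 in siCdc73 and 31839 in siSki8. After siPaf1, Cdh15 and this sum were thus both lower in RNA-seq in each batch. The myoblast sum in 3'READS was higher in both batches, so the 2 assays differed in direction. With the block, 3 of 10 recruiting factors tested were called after siPaf1, 2 higher and 1 lower, and 3 after siCdc73, 1 higher and 2 lower, beside 16.3% of all genes higher and 16.2% lower after siPaf1, and 19.4% and 20.5% after siCdc73. Hes6, a Hes family member that favours myogenic and neuronal differentiation, stood at 46.9 and 44.7 CPM in siCtrl, 112 and 60.1 in siPaf1, 112 and 175 in siCdc73 and 27.2 in siSki8. The 4 siPaf1 and siCdc73 libraries were above both siCtrl libraries and the siSki8 library was below them, and Hes6 rose by 0.90 on the log2 scale after siPaf1 (SE 0.285, adjusted p = 0.0151, edgeR with the block) and by 1.83 after siCdc73 (SE 0.287, adjusted p = 8.35e-06). Tcf7, a Wnt pathway factor that binds Groucho/TLE proteins, stood at 28.8 and 14.4 CPM in siCtrl and at 5.86 and 2.52 in siCdc73, a log2 change of -2.15 (SE 0.387, adjusted p = 5.37e-05). Runx3, a Runt-domain factor, fell by 0.92 after siPaf1 and by 0.71 after siCdc73 (adjusted p = 0.0139 and 0.0465), and Tbx18, a T-box factor, rose by 0.75 after siPaf1 (adjusted p = 0.0231). The median log2 change of the 10 genes was 0.03 after siPaf1 and -0.12 after siCdc73, beside 0.02 and -0.02 over all genes.

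Of the modifiers and partners tested, 2 of 6 were higher after siPaf1 and 3 of 6 after siCdc73, and 0 were lower, beside 16.3% of all genes higher after siPaf1 and 19.4% after siCdc73. Ctnnb1, which encodes beta-catenin, rose by 0.58 after siPaf1 and by 0.67 after siCdc73 (adjusted p = 0.0411 and 0.0143, edgeR with the block). The kinase gene Mapk3 rose by 0.58 after siPaf1 (adjusted p = 0.0470), and Csnk2b, the regulatory subunit of casein kinase 2, and Parp1 rose by 0.71 and 0.55 after siCdc73 (adjusted p = 0.0119 and 0.0493). The median log2 change of the 6 genes was 0.18 after siPaf1 and 0.52 after siCdc73.

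Of 13 other corepressors tested, 4 were higher after siPaf1 and 2 after siCdc73, and 0 were lower, beside the same 16.3% and 19.4% of all genes higher. Calls in either direction were made for 32.5% and 39.9% of all genes. Sin3b, a scaffold of histone deacetylase complexes, stood at 247 and 454 CPM in siCtrl, 472 and 644 in siPaf1 and 656 and 1168 in siCdc73. It was above siCtrl of the same batch in all 4 libraries and rose by 0.71 after siPaf1 (SE 0.222, adjusted p = 0.0137, edgeR with the block) and by 1.56 after siCdc73 (SE 0.225, adjusted p = 2.58e-06). Bcorl1, a partner of CtBP and class II deacetylases, rose by 0.95 after siPaf1 (adjusted p = 0.00419). The nuclear receptor corepressor Nrip1, named after its value was seen, rose by 0.79 after siPaf1 (adjusted p = 0.0427). The histone deacetylase gene Hdac3 rose by 0.56 after siCdc73 (adjusted p = 0.0446). The median change of the 13 genes was 0.21 after siPaf1 and -0.10 after siCdc73. After siSki8 no gene of the 3 lists was called with the block, and the medians were -0.73 for the recruiting factors, 0.42 for the modifiers and partners and 0.30 for the other corepressors, beside 0.02 over all genes. Without the block these medians were -1.20, 0.43 and 0.19, beside -0.03.

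**Figure D5:**
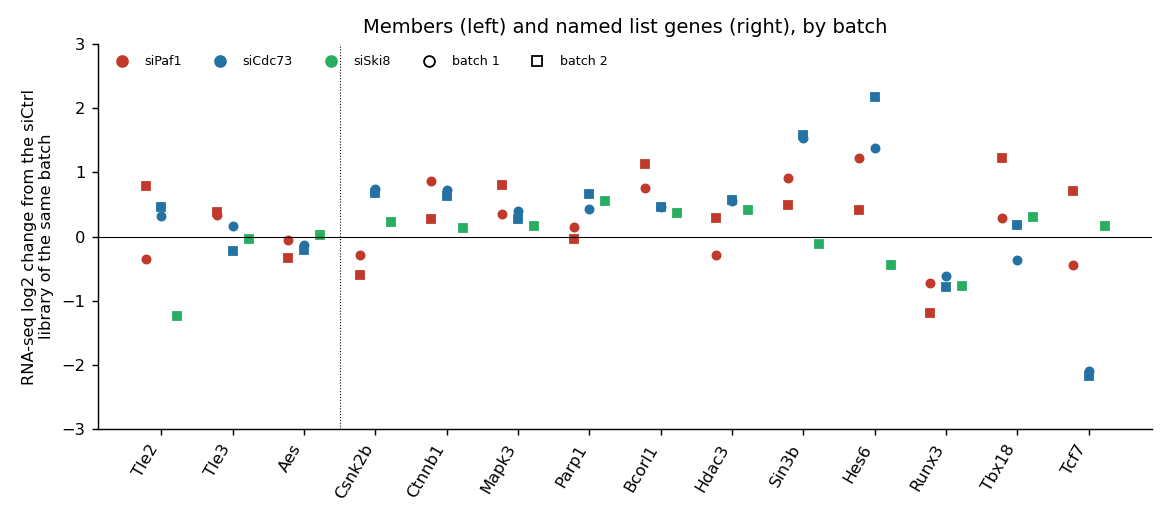
RNA-seq log2 change from the siCtrl library of the same batch for the members Tle2, Tle3 and Aes (left of the dotted line) and several called list genes (right), with colours for the knockdown, circles for batch 1 and squares for batch 2. Tle2 lies at -1.24 in siSki8, and Hes6 and Sin3b lie above 0 in both batches of siPaf1 and siCdc73.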

How the data were processed

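The authors mapped reads of both assays to mm9 with Bowtie2, as the submitters' processing notes and the methods state, and its version is not given in the sources used here. They deposited raw read counts per RefSeq transcript over coding regions for the strand-specific RNA-seq, with RPKM values beside the counts, and counts of PASS reads per pA site for 3'READS, without normalization. ChIP-seq samples of the series were not used here. All per-sample columns matched a sample (0 unmatched). Of several transcripts, the most highly counted one stood for its gene, RPKM served for levels between genes, and CPM is the count scaled to 1000000 gene counts or sense PASS reads per library.

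All 7 libraries of an assay entered each fit in R 4.3.3 with edgeR 4.0.16 (TMM, low-count filter, quasi-likelihood test, Benjamini-Hochberg adjustment over all features, calls at an adjusted p under 0.05). The fits have no batch term, and the methods state none. For ratios, sites under 5% of a gene's reads were left out, genes needed 20 or more reads on average (at least 10 antisense reads in total for uaRNA), and the isoform by knockdown interaction was tested. Alternatives were a batch block, DESeq2 1.42.0, other filters and scalings, pooled reads and leaving out libraries. The labels place libraries in shared batches, and the batch 2 minus batch 1 difference of each gene was alike in the replicated groups, with r across genes of 0.620 to 0.748 in RNA-seq and 0.432 to 0.610 in 3'READS. Sequences and positions came from the mm9 genome and GENCODE M1, with Python 3.11.15, pandas 2.3.3, scipy 1.17.1 and matplotlib 3.10.9. The fits were also run on simulated data, with no outcome given here, and that run is no measure of their error in these libraries. The members and lists were chosen with earlier results of these data known. Named genes are the 6 members, the siRNA targets, at most 3 genes per list, direction and knockdown with the smallest adjusted p in the blocked RNA-seq fit that moved alike in both batches, and the 2 genes most like each member. One named result is not reported here.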

Additional observations from a re-analysis of the deposited data

How the results depend on the processing

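With 2 libraries a group and 1 for siSki8, depth and batch limit these values most where members had few reads, as in Tle4, Tle6 and Tle2 after siSki8. For 14 single changes of members, 225 comparisons with an alternative setting were made, of which 191 kept their direction and side of the threshold, 28 passed it, 0 lost it and 6 turned. None of the 14 was called without the block, so none could lose the threshold, and the 191 stayed uncalled. The tally is therefore no measure of how firm a call is. It includes the Tle2 CDS-APA change between siPaf1 and siCdc73, a description from values on which Tle2 was chosen. The turns were Tle2 in RNA-seq after siPaf1, at -0.29 without the siPaf1 library of batch 2, -0.32 (with the block) and -0.080 without the siCtrl library of batch 2 (with the block), and Tle1 in CDS-APA after siPaf1, at 0.40, 0.47 and 0.56 in the same settings. Without the block, leaving out 1 library moved the first from -0.29 to 0.75 and the second from -1.92 to 0.40. The cause was not tested.

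Counts leave out the 3'READS measures of Tle2 after siPaf1 and siCdc73, on which it was chosen. They still hold Tle2 in siPaf1 against siCdc73, where a call for it would be a description only. Without the block 0 of the members counted were called by edgeR in every comparison. The replicate block gave 1 call in RNA-seq after siSki8, 1 in 3'UTR-APA and 2 sites in single-site usage after siCdc73, 4 recruiting factors, 4 modifiers and partners and 5 other corepressors, and it changed no other call among those counted. Reads pooled over libraries, which ignore their spread, gave 1 and 2 members in RNA-seq after siPaf1 and siSki8, 2 in the 3'READS level in each comparison, 1 in CDS-APA after siPaf1 and between siPaf1 and siCdc73, 2, 1 and 1 in 3'UTR-APA after siPaf1, siCdc73 and siSki8, 7, 3, 2 and 8 sites after siPaf1, siCdc73, siSki8 and between siPaf1 and siCdc73, and 1 in uaRNA after siPaf1 and siCdc73. Over all genes, pooled reads called 47% and 48.4% of 6521 in RNA-seq after siPaf1 and siSki8. In the 3'READS level they called 35.8% (siSki8) to 53.4% (siPaf1) of 12579. The pooled counts are therefore not read as a result about the members. Leaving out 1 library gave 0 to 0 calls without the block. The share of all genes called is not given here for pooled ratios or for fits without 1 library, so those counts are a description only. With it, in an alternative chosen after seeing the data, members called ranged from 0 to 1 in RNA-seq after siPaf1 and siSki8 and in the 3'READS level after siPaf1, were 1 in the 3'READS level after siSki8 each time, and ranged from 0 to 1 in 3'UTR-APA and 0 to 2 in single-site usage after siCdc73. In RNA-seq after siPaf1 the call was Tle2 without the siPaf1 library of batch 1 (log2 change 0.78, adjusted p = 0.0241, edgeR), and in the 3'READS level it was Tle3 in the same setting. The lists depended on single libraries: recruiting factors ranged from 2 (without siCtrl of batch 2) to 9 (without siPaf1 of batch 1, and 8 without that of batch 2), modifiers and partners from 0 (without siCtrl of batch 1 or either siCdc73 library, and 1 without siCtrl of batch 2) to 6, and other corepressors from 1 (without siCtrl of batch 2, and 3 without siCtrl of batch 1 or either siCdc73 library) to 6.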
